A study of Homo sapiens with 38 samples.

Results

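RUNX1, RUNX2 and RUNX3, the genes of the Runt-domain transcription factors, and CBFB, the gene of their shared partner protein, were examined in 3 lists of ChIP-seq peaks from stimulated Jurkat cells. ChIP-seq recovers DNA fixed to a protein or modified histone with an antibody, sequences it and lists places with many reads as peaks. The members were chosen by name, and a listed region was taken when its summit, the position of its highest point, lay inside the RefSeq gene record or within 100 kb of it. This gave 80 of 29009 GATA3 regions, 74 of 26205 BHLHE40 regions and 161 of 113570 H3K27ac regions, or 315 of 168784 listed regions.

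Jurkat is an established human T-cell leukaemia line, so the values describe a single line. The cells of these 3 groups carried the control lentivirus, named Ctrl_LV, in otherwise wild-type Jurkat cells, and had received PMA (50 ng/ml) together with ionomycin (500 ng/ml), which mimic signals of the T-cell receptor. The sample labels give 5 hours of stimulation and the treatment protocol 2 hours. The antibodies were directed at GATA3, a zinc-finger factor of T cells, at BHLHE40, a basic helix-loop-helix factor that binds E-box sequences, and at H3K27ac, a histone acetylation found at active promoters and enhancers. The series has 38 samples in 19 groups of 2, and the other 16 groups (edited cells, BHLHE40 over-expression, other antibodies and inputs) were not analysed here. Each list stands for the 2 samples of its group, so no spread between samples can be given and no test was made. The signal value is the authors' enrichment per region, and ranks count from 1 for the highest signal value of a list. Sequencing depth is unknown.

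As background, RUNX proteins bind DNA through the Runt domain, and CBFB, which does not itself contact DNA, strengthens that binding. RUNX1 is needed for blood formation and T-cell development and belongs, with TAL1, GATA3 and MYB, to a set of factors that regulate one another in T-cell leukaemia. RUNX2 is the master factor of bone formation, and RUNX3 acts in cytotoxic T cells. Each RUNX gene is transcribed from a distal and an internal promoter, and the distal promoters carry RUNX sites of their own.

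The start sites were compared first, because the sequence there can be set beside the listed regions. The RefSeq table of start windows on GRCh38 (250 bases before to 50 after a start) held 5 windows for the members: the distal and internal starts of RUNX2 and RUNX3 and the internal start of RUNX1. CBFB was not among them. BHLHE40 regions overlapped 4 of these 5 windows, against 42.6% of 22198 start windows of protein-coding genes. H3K27ac overlapped 4 of 5 (46.0% of all), or 2 of 5 when a −log10 q of 5 or more was required (42.1% of all). GATA3 overlapped 1 of 5 (18.1% of all). The window with all 3 was the internal start of RUNX1, and the window with none was the internal start of RUNX3.

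The 250 bases before 4 of these starts are shown 5′ to 3′ on the coding strand, with GATAA, the E-boxes CACGTG and CATGTG, and the RUNX core TGTGGT or TGCGGT in capitals on either strand (ACCACA is TGTGGT read from the other strand). The distal starts are shown for their RUNX cores and their BHLHE40 regions, and the internal starts because they stand at opposite ends in the number of lists that cover them.
RUNX2 distal start, chr6:45328080-45328329, plus strand: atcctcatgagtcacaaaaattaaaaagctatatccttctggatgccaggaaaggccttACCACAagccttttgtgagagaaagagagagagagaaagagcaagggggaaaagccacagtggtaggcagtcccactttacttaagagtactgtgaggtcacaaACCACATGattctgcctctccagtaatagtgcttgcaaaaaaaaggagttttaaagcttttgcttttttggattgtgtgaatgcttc
RUNX3 distal start, chr1:24965011-24965260, minus strand: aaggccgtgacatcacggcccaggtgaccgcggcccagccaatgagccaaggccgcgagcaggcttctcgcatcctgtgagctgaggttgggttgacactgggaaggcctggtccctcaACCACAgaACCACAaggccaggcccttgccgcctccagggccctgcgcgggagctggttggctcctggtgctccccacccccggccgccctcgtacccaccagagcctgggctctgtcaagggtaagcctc
RUNX1 internal start, chr21:34888700-34888949, minus strand: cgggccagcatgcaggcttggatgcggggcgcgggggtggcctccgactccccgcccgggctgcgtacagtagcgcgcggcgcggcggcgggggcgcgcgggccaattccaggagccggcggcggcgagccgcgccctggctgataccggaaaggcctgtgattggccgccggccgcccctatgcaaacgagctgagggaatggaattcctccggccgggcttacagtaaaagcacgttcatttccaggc
RUNX3 internal start, chr1:24930277-24930526, minus strand: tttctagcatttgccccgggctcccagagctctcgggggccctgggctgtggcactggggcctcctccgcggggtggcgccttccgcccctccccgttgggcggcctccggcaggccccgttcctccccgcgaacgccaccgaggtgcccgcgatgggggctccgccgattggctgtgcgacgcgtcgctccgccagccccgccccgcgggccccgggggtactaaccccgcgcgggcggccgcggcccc

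The start windows of the members differed in composition, and only the distal RUNX2 window lay below the median of all start windows. G and C made up 42.7% of the 300 bases at the distal RUNX2 start and 66.3% at the distal RUNX3 start, against 72.0% at the internal RUNX1 start and 76.0% at the internal starts of RUNX2 and RUNX3. The median over all 35116 start windows was 58.7%. TGTGGT occurred 4 times at the distal RUNX2 start and 2 times at the distal RUNX3 start, and TGCGGT once more at RUNX2. Some of the RUNX2 matches lie in the 50 bases after the start, which are not printed. Neither core was found in the 3 internal windows. TGTGGT was present in 13.1% of all start windows and TGCGGT in 7.29%, and 2.32% held at least 2 such matches.

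The distal windows of RUNX2 and RUNX3 shared an unbroken stretch of 18 bases with 2 RUNX cores, in capitals, which occurred in none of the other start windows of the table.
RUNX2, chr6:45328344-45328361, plus strand, and RUNX3, chr1:24965126-24965143, minus strand: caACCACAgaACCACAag
At RUNX3 the stretch began 133 bases before the start, and at RUNX2 its first base was base 15 after the start. A BHLHE40 region covered the stretch in both genes: the region at chr1:24964772-24965525 with a signal value of 12.1 for RUNX3, and the region at chr6:45327965-45328550 with 5.98 for RUNX2. No GATA3 region overlapped either distal window, and the nearest GATA3 summit was 9742 bp from the RUNX3 start and 3021 bp from the RUNX2 start. A sequence match is a description and not a binding site. GATAA, present in 22.7% of all start windows, and CACGTG, present in 7.26%, were found in none of the 5 windows. CATGTG, present in 11.1% of all, was found once, in the distal RUNX2 window, where it overlaps a RUNX core. The ETS core GGAA was present in all 5 windows and in 95.5% of all, and the AP-1 sequence TGANTCA in the distal RUNX2 window and in 7.71% of all.

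Across whole windows, RUNX1 was the member with the most regions for its length in each list. All 4 windows held at least 1 region of each list, as did 86.9% of the windows of 20033 protein-coding genes for GATA3, 87.2% for BHLHE40 and 95.9% for H3K27ac, so the number of regions per 100 kb is the more telling measure. RUNX1 had 35 GATA3 regions (7.58 per 100 kb, percentile 99.6 of protein-coding windows), 32 BHLHE40 regions (6.93 per 100 kb, percentile 98.6) and 64 H3K27ac regions (13.9 per 100 kb, percentile 97.1). RUNX2 had 24 GATA3 regions (5.68 per 100 kb, percentile 98.6), 20 BHLHE40 regions (4.73 per 100 kb, percentile 92.1) and 47 H3K27ac regions (11.1 per 100 kb, percentile 89.2). RUNX3 followed for GATA3 with 13 regions (4.89 per 100 kb, percentile 97.5) and had 10 BHLHE40 regions (3.77 per 100 kb, percentile 85.2) and 23 H3K27ac regions (8.66 per 100 kb, percentile 74.3). Its BHLHE40 density was the lowest of the 4 with flanks of 100 kb, but with flanks of 50 kb it was 4.23 per 100 kb and that of CBFB 4.07.

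CBFB had 8 GATA3 regions (2.94 per 100 kb, percentile 87.7), 12 BHLHE40 regions (4.41 per 100 kb, percentile 90.6) and 27 H3K27ac regions (9.93 per 100 kb, percentile 83.2). Fewer GATA3 than BHLHE40 regions were not particular to CBFB under other settings: with a score of at least 830 RUNX1 had 22 against 25 and CBFB 8 against 9, and with flanks of 50 kb RUNX3 had 6 against 7. Its window is also the most crowded: it holds 14 other protein-coding records, whereas each RUNX window holds 1. The median protein-coding window had 1.27 GATA3, 1.51 BHLHE40 and 5.77 H3K27ac regions per 100 kb, and all 4 members were above these medians in each list.

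**Figure D1:**
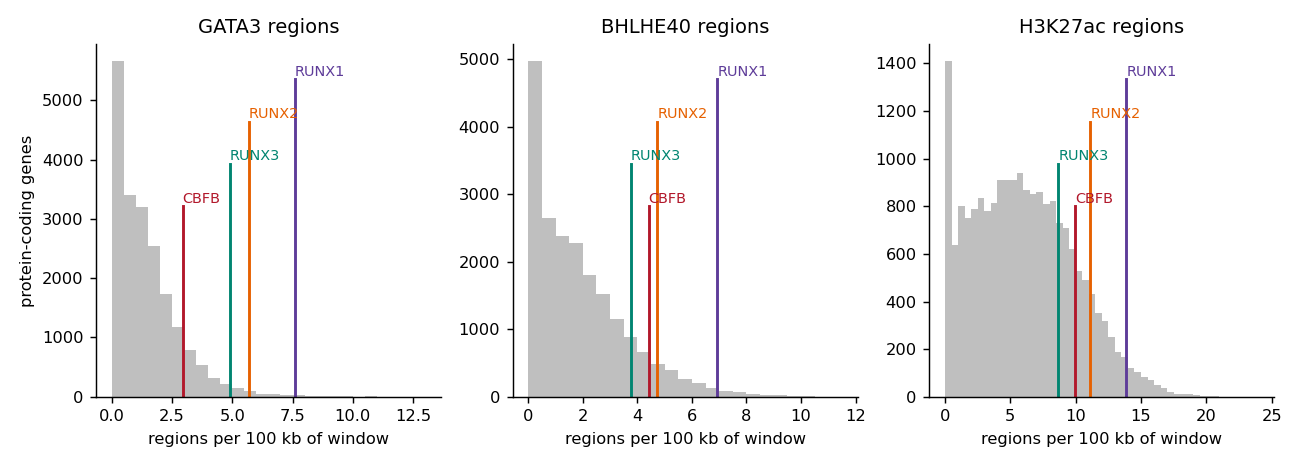
Histograms of the number of GATA3, BHLHE40 and H3K27ac regions per 100 kb (x axis) over the windows of 20033 protein-coding genes (y axis, number of genes), with coloured lines at the 4 members. RUNX1 lies far right in each panel, and CBFB lies lowest of the 4 for GATA3.

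In stricter lists RUNX1 was still the densest of the 4 in each list, whereas RUNX2 moved to the lowest place for acetylation. With a score of at least 830, RUNX1 had 22 GATA3 regions (4.77 per 100 kb, percentile 98.7) and CBFB kept its 8 (percentile 93.7). At −log10 q values of 5 or more, 26 of the 64 H3K27ac regions of RUNX1 remained (percentile 93.2), 12 of 47 for RUNX2 (percentile 68.5), 8 of 23 for RUNX3 (percentile 71.5) and 13 of 27 for CBFB (percentile 88.3). Regions under this minimum made up 35 of 47 in RUNX2 (74.5%), close to the 74.9% of the whole H3K27ac list, and 59.4% in RUNX1, 65.2% in RUNX3 and 51.9% in CBFB.

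The regions of the RUNX1 window lay mostly in the gene. Of the 35 GATA3 regions 27 had their summit in the 261.5 kb record, as did 26 of the 32 BHLHE40 regions and 53 of the 64 H3K27ac regions. In RUNX2, 15 of 24 GATA3, 16 of 20 BHLHE40 and 32 of 47 H3K27ac summits lay in the 222.8 kb record. In the shorter records of RUNX3 (65.6 kb) and CBFB (71.9 kb) most regions lay in the flanks, which are longer than these records. Inside RUNX3 were 4 of 13 GATA3 and 4 of 10 BHLHE40 summits, and inside CBFB 2 of 8 and 2 of 12. For its length each RUNX record was denser than its whole window in both factors. In RUNX1 the record held 10.3 GATA3 and 9.94 BHLHE40 regions per 100 kb, against 7.58 and 6.93 in the window. In RUNX2 it held 6.73 and 7.18, against 5.68 and 4.73. The RUNX3 record held 6.1 regions per 100 kb of each, against 4.89 for GATA3 and 3.77 for BHLHE40. For H3K27ac it held 7.62, against 8.66. The CBFB record held 2.78 of each factor, against 2.94 for GATA3 and 4.41 for BHLHE40, and 12.5 for H3K27ac, against 9.93. The table gives no exons, so exons, introns and untranslated parts were not told apart.

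**Figure D2:**
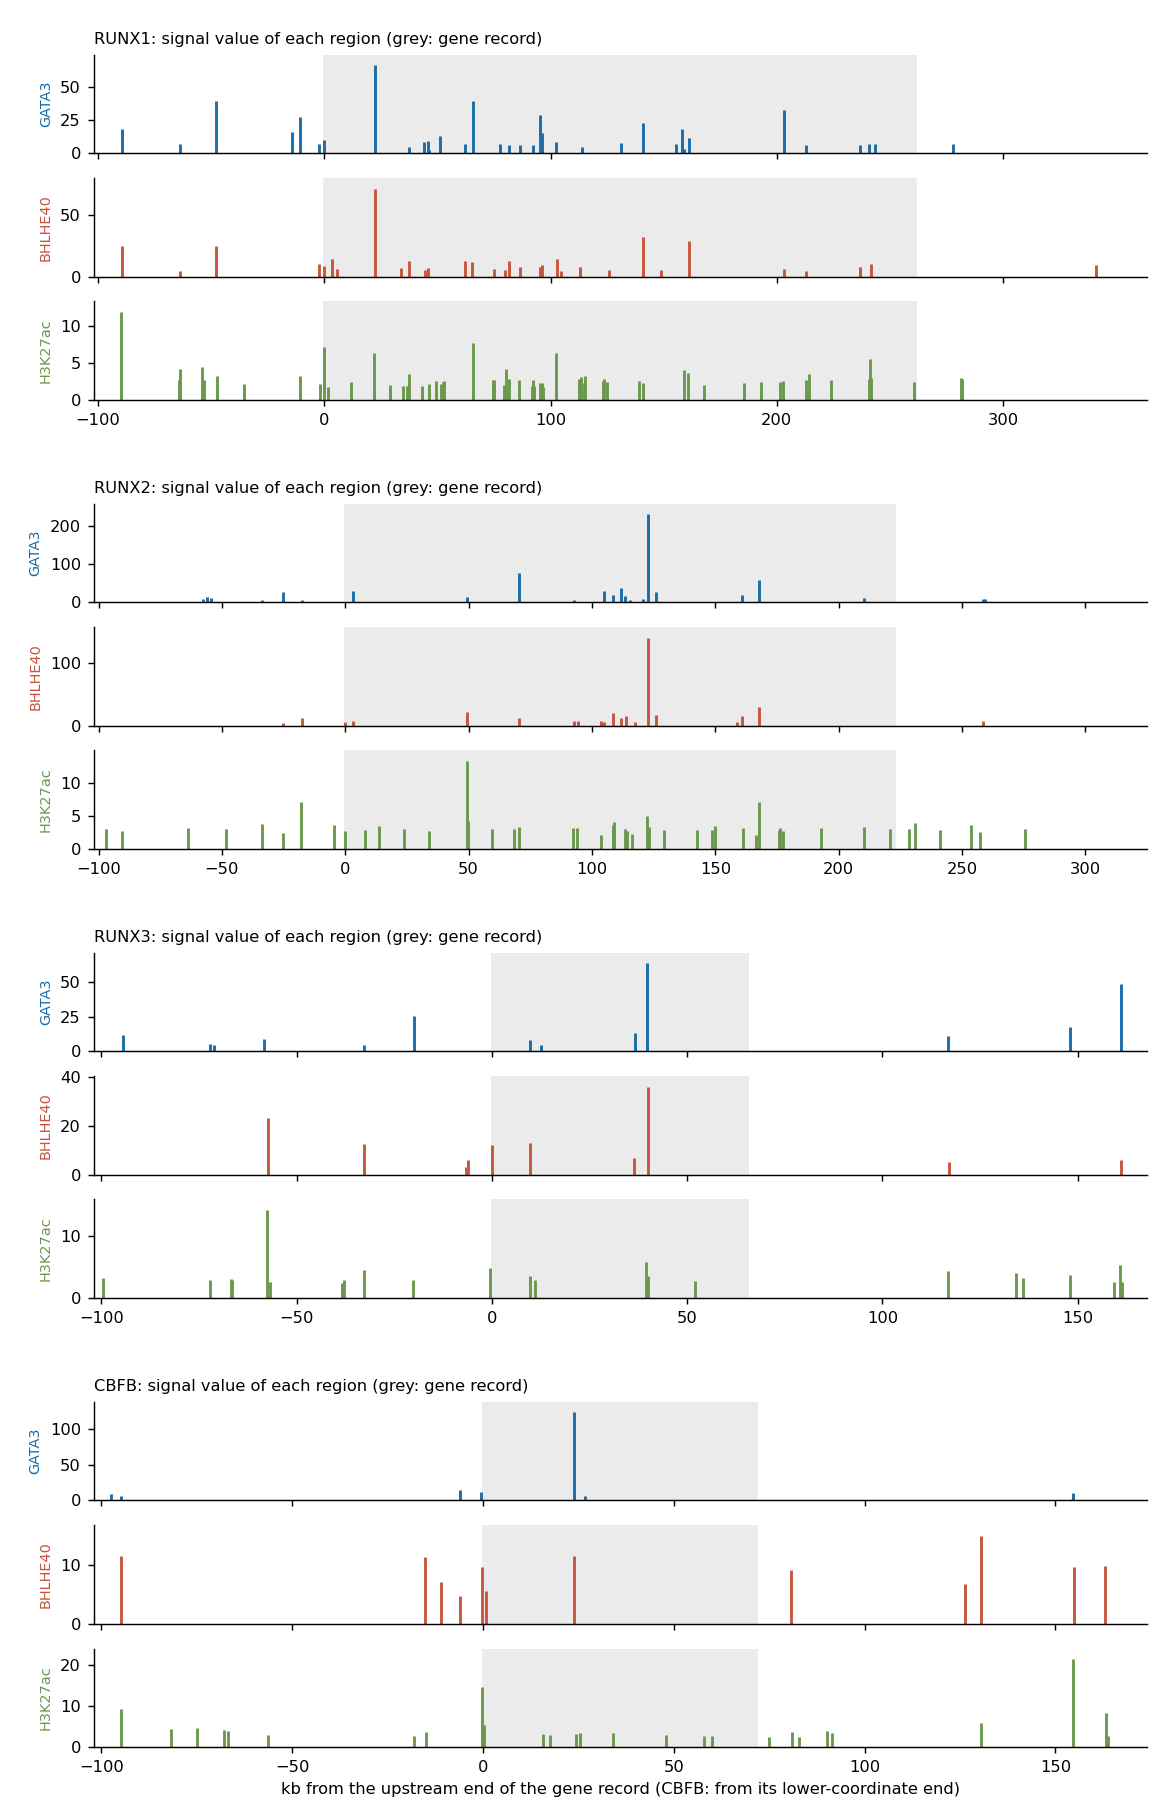
Signal value (y axis, linear, own scale per list) of each listed region against the distance of its summit in kb from the upstream end of the gene record (x axis; from the lower-coordinate end for CBFB), with the gene record in grey. In each of the 4 genes the GATA3 region with the highest signal value lies inside the record.

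In RUNX1 the place with the highest value of both factors was 22.4 kb inside the record from its distal end, on chromosome 21 of GRCh38. There the GATA3 region at chr21:35025961-35028086 had a signal value of 66.3 (rank 790 of 29009). The BHLHE40 region at chr21:35025962-35028387 had 71.9 (rank 128 of 26205), with 19 bp between both summits. An H3K27ac region at chr21:35026261-35028237, with a signal value of 6.40 and a −log10 q of 167.6, lay over the same place. As background, an enhancer of blood stem cells is known in the intron that follows the distal RUNX1 promoter.

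Other RUNX1 regions favoured one factor. At chr21:34845661-34846177, in the part of the gene where the antisense record RUNX1-AS1 lies, GATA3 had a signal value of 32.7 (rank 3111) and BHLHE40 6.25 (rank 21153), with no H3K27ac region over it. The reverse order was seen at the internal start, whose sequence is shown above: a BHLHE40 region of 5285 bp at chr21:34887363-34892647 had a signal value of 29.2 (rank 1420), and the GATA3 region there, chr21:34887344-34889060, had 11.3 (rank 14324). The same BHLHE40 region also overlapped a GATA3 region at chr21:34890768-34891902 with 18.0 (rank 7601) and a weak one with 2.96 (rank 28848). That BHLHE40 region was 1 of 95 of at least 5000 bp in the list. At chr21:34908325-34908958, with its summit 19873 bp upstream of the internal start, BHLHE40 had 32.6 (rank 1097) and GATA3 22.9 (rank 5427).

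The distal end of the RUNX1 record, position 35049302, was covered by all 3 lists. The signal values were 10.3 for GATA3 (rank 16346 of 29009) and 8.75 for BHLHE40 (rank 14404 of 26205). For H3K27ac the value was 7.18 (rank 6315 of 113570). Of the 8 ends of the 4 records this distal end was the only one under a GATA3 region, against 8.61% of all 40066 ends of protein-coding records. BHLHE40 covered 3 of the 8 ends (21.4% of all) and H3K27ac 2 of 8 (18.8% of all). Upstream of the record, a shared region lay 48.1 kb away (GATA3 39.6, rank 2257, and BHLHE40 24.8, rank 2019). Another lay about 89.6 kb away (GATA3 18.6, rank 7234, and BHLHE40 25.2, rank 1961). The farther of these carried the H3K27ac region with the highest signal value of the window, 12.0 (rank 1323 of 113570), at chr21:35138471-35139766.

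RUNX2 held the highest values of the family for both factors. The GATA3 region at chr6:45450467-45451980, 122.7 kb inside the record and 28778 bp downstream of the internal start, had a signal value of 230.1, rank 8 of 29009. The BHLHE40 region at chr6:45450396-45451559 had 140.2, rank 13 of 26205, with its summit 17 bp away. No other place in the 4 windows ranked this high in either list. The 2 H3K27ac regions at this place had signal values of 5.02 (rank 13224 of 113570, −log10 q 28.5) and 3.39 (rank 46942, −log10 q 10.9), against a median of 3.31 over the list.

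Around it the RUNX2 gene held a run of regions. GATA3 had 75.8 (rank 569) at chr6:45398187-45399218, where BHLHE40 had 12.2 (rank 8610), and 57.3 (rank 1119) at chr6:45494625-45496712, where BHLHE40 had 29.5 (rank 1393) and the summits were 5 bp apart. At chr6:45436592-45437365 GATA3 had 20.2 (rank 6475) and BHLHE40 19.7 (rank 3338), and the summits were 1 bp apart. The H3K27ac region with the highest signal value of the window was at another place, chr6:45377030-45377952, with 13.3 (rank 858). This position also lies at the end of SUPT3H, a neighbouring gene whose record overlaps RUNX2, so it cannot be assigned to RUNX2 from these lists. There BHLHE40 had 21.5 (rank 2755) and GATA3 13.2 (rank 11725).

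In RUNX3 the place with the highest values lay downstream of the internal start, 39.8 kb inside the record. GATA3 had 63.8 (rank 875) at chr1:24924859-24925892 and BHLHE40 35.9 (rank 884) at chr1:24924893-24925900, with summits 42 bp apart. This place is 4931 bp from the internal start, which itself had no listed region: the nearest BHLHE40 region ended 681 bp from the start window, the nearest GATA3 region 927 bp and the nearest H3K27ac region 4407 bp. The 75.9 kb downstream of the place with the highest values, chr1:24848922-24924858, include the downstream end of the gene. They held no region of either factor and 1 H3K27ac region with a −log10 q of 1.65. In the flanks, GATA3 had 48.6 (rank 1560) inside the neighbouring gene CLIC4 and 25.6 (rank 4564) 20.1 kb upstream of RUNX3, the latter without BHLHE40.

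The H3K27ac region with the highest signal value of the RUNX3 window, 14.1 (rank 674, −log10 q 171.8), lay 57.7 kb upstream at chr1:25022491-25023462, beside the microRNA gene MIR4425. BHLHE40 had 23.3 (rank 2284) there and GATA3 8.83 (rank 19684), with 890 bp between both summits. The GATA3 region at chr1:25022428-25023649 covered the whole MIR4425 hairpin, chr1:25023503-25023586. The BHLHE40 region, chr1:25022214-25023539, covered part of it. The mature sequence of MIR4425 in RefSeq is given for identification, with the seed (bases 2 to 8) in capitals.
hsa-miR-4425: uGUUGGGAuucagcaggaccau
MIR6731, a microRNA gene inside RUNX3, had no listed region over it, and the nearest GATA3 summit was 5929 bp away.

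CBFB held a strong GATA3 region that BHLHE40 did not match. At chr16:67052506-67053521, 23.8 kb inside the record, GATA3 had a signal value of 123 (rank 140 of 29009). The BHLHE40 region at chr16:67052716-67053415 had 11.5 (rank 9573 of 26205), with its summit 60 bp away, and the H3K27ac region that overlapped it had 3.32 (−log10 q 5.84). The second GATA3 region inside the record had a signal value of 6.54 and lay alone, without BHLHE40 or H3K27ac.

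The lower-coordinate end of the CBFB record, position 67029149, lay between listed regions. H3K27ac regions on each side of it had signal values of 14.7 (rank 585, −log10 q 172.5) and 5.48 (rank 11126). The nearest BHLHE40 summit was 270 bp away with 9.57 (rank 12670), and the nearest GATA3 summit 569 bp away with 12.3 (rank 12861). The highest BHLHE40 value of the window, 15.0, was at TRADD, and the highest H3K27ac value, 21.4 (rank 116 of 113570), at MATCAP1, both neighbours of CBFB. At the other end of the CBFB record the nearest BHLHE40 summit was 8868 bp away and the nearest GATA3 summit 45194 bp away.

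**Figure D3:**
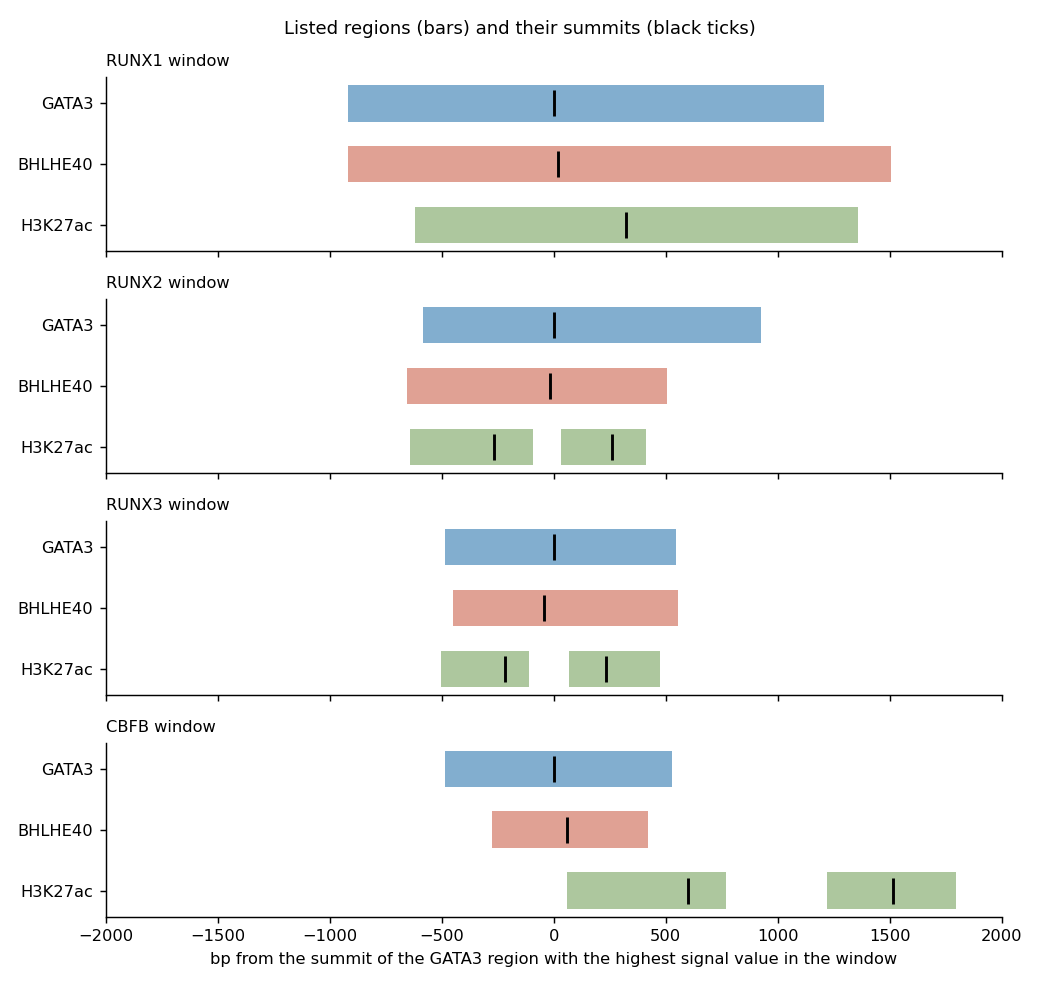
Listed GATA3, BHLHE40 and H3K27ac regions (bars) and their summits (black ticks) within 2 kb of the GATA3 region with the highest signal value in each window (x axis, bp from its summit). GATA3 and BHLHE40 summits lie 19, 17, 42 and 60 bp apart in RUNX1, RUNX2, RUNX3 and CBFB, and in RUNX2 and RUNX3 both fall in a gap between 2 H3K27ac regions.

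At these places of RUNX2 and RUNX3 the summits of both factors fell between 2 H3K27ac regions, in gaps of 125 bp and 180 bp. Over the 4 windows, 5 of 80 GATA3 summits (6.25%) and 7 of 74 BHLHE40 summits (9.46%) lay in a gap of at most 500 bp between neighbouring H3K27ac regions. In the whole lists the shares were 3.99% and 8.39%, so the counts over the windows were close to the background.

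Most regions of each factor in these windows overlapped a region of the other. An overlap of at least 1 bp was found for 54 of 80 GATA3 regions (67.5%, 95% Wilson interval 56.6% to 76.8%), against 48.7% of the whole list. By gene the count was 26 of 35 in RUNX1, 15 of 24 in RUNX2, 7 of 13 in RUNX3 and 6 of 8 in CBFB. Counted from BHLHE40, 50 of its 74 regions overlapped GATA3 (67.6%, interval 56.3% to 77.1%), against 53.0% of the whole list. In the RUNX genes this was 23 of 32, 15 of 20 and 7 of 10, and in CBFB 5 of 12. The intervals cover counting only, and regions of 1 window are not independent. When sharing required summits within 100 bp, 37 of 80 GATA3 regions (46.2%, interval 35.8% to 57.1%) and 37 of 74 BHLHE40 regions (50.0%, interval 38.9% to 61.1%) counted as shared. Under that rule the whole lists had 37.5% and 41.5%. Because the regions are not independent, the intervals of neither rule test a difference from the whole lists.

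The summits of the 54 shared GATA3 regions lay a median of 48 bp from the nearest BHLHE40 summit, and 51.9% were within 50 bp. Over the whole list the median was 35 bp, with 61.5% within 50 bp. The RUNX2 summits were the closest of the 4 genes, with a median of 24 bp over 15 regions, and the RUNX1 summits lay a median of 63.5 bp apart over 26. In 31 of the 54 shared regions (57.4%) BHLHE40 ranked nearer the top of its list than GATA3 did, against 51.6% of the 14123 shared regions of the whole list. The wide BHLHE40 region at the internal RUNX1 start entered this count with 3 GATA3 regions. Another BHLHE40 region of RUNX1 and 1 at MATCAP1 near CBFB also entered more than once. With each BHLHE40 region counted once the count was 27 of 50 (54.0%), and 15 of 23 (65.2%) in RUNX1. By gene the first count was 18 of 26 in RUNX1, 7 of 15 in RUNX2, 3 of 7 in RUNX3 and 3 of 6 in CBFB. Both factors were among the highest 10% of their lists in 5 of the 54 shared regions (9.26%), 2 in RUNX1, 2 in RUNX2 and 1 in RUNX3. In the whole list this held for 7.84% of shared regions, so both counts over the 4 windows were near the background.

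**Figure D4:**
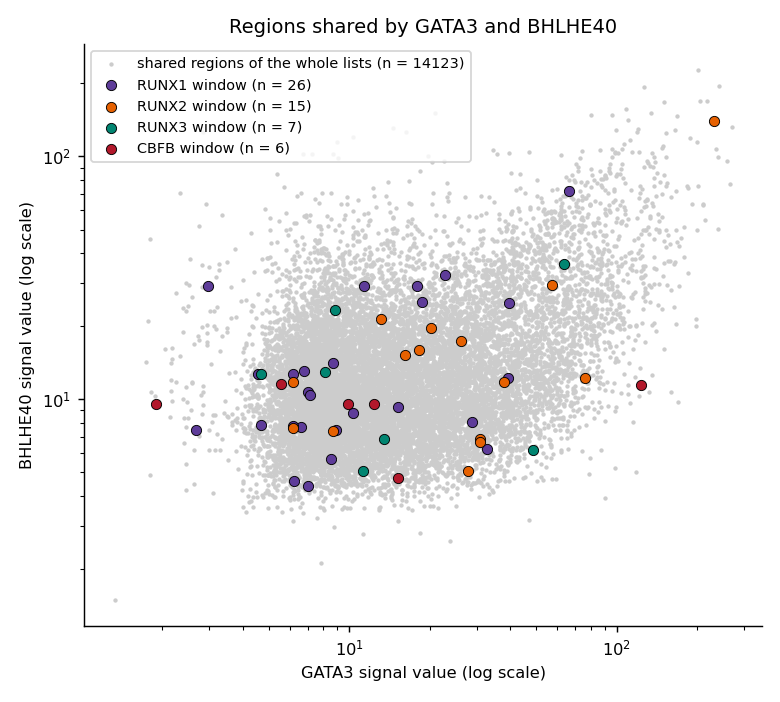
BHLHE40 signal value (y axis, log scale) against GATA3 signal value (x axis, log scale) for GATA3 regions that overlap a BHLHE40 region, paired with the overlapping BHLHE40 region of highest value, in the whole list (grey, n = 14123) and in the 4 windows (colours, n = 54). The RUNX2 point at 230.1 and 140.2 lies at the upper right, and the CBFB point at 123 and 11.5 lies low for its GATA3 value.

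Acetylation was listed over most regions of both factors. H3K27ac overlapped 47 of 80 GATA3 regions (58.8%, interval 47.8% to 68.9%) and 50 of 74 BHLHE40 regions (67.6%, interval 56.3% to 77.1%), against 49.1% and 76.4% of the whole lists. Counting only H3K27ac regions at −log10 q values of 5 or more, the shares were 40.0% and 50.0%, against 33.4% and 60.2%. GATA3 regions with neither BHLHE40 nor H3K27ac made up 19 of 80 (23.8%), against 39.9% of the whole list. BHLHE40 regions with H3K27ac but no GATA3 made up 11 of 74 (14.9%), against 35.3%, and 5 of these 11 were in the CBFB window.

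H3K27ac regions reaching a −log10 q of 5 were joined where they lay at most 12.5 kb apart, and the 17597 resulting domains were ranked by the base pairs of H3K27ac listed in them. The largest domain of RUNX1, chr21:34933756-34984610, ranked 24. It spanned 50.9 kb of the gene between the internal start and the distal end, with 13 H3K27ac regions covering 7572 bp, 9 GATA3 summits and 10 BHLHE40 summits. Joined at most 5000 bp apart, the largest domain of this window held 2580 bp and ranked 222 of 21370.

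The other members had no domain of this size. The largest of RUNX2, chr6:45436487-45451465, ranked 952 with 2618 bp and ended at the place with the highest GATA3 value. The largest of RUNX3, chr1:24954937-24966029, ranked 2081 with 1897 bp and covered the distal start. In the CBFB window the largest, chr16:66933509-66962671, ranked 534 with 3186 bp but lay at CIAO2B and the carboxylesterase genes, while the domain at the CBFB start ranked 5281 with 1248 bp.

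Genes that act with RUNX proteins, or are known targets of them in T cells, were set beside the members. Of 17 partners and cofactors, 13 were above the protein-coding median for GATA3 regions per 100 kb, 14 for BHLHE40 and 11 for H3K27ac. MYB had the highest density among them, with 11.8 GATA3, 10.1 BHLHE40 and 17.7 H3K27ac regions per 100 kb, all above RUNX1. The ETS-family genes ETS1 and FLI1, which are neighbours and share part of their windows, had 10.0 and 7.92 GATA3 regions per 100 kb. GATA3 itself had 4.35, between RUNX3 and CBFB, and TAL1 3.24. The coactivator gene EP300 had no GATA3 region in its window and 1.74 BHLHE40 regions per 100 kb, and the E-protein gene TCF3 had 0.411 and 2.88.

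All 12 target genes were above the protein-coding median in each list, some only slightly. For GATA3 the lowest were TBX21 with 1.41 and PTCRA with 1.43 per 100 kb, against the median of 1.27. For BHLHE40 the lowest was RAG1 with 1.86, against 1.51. The gene lists were chosen with earlier results of these data known. CSF2 and IL3, adjacent cytokine genes whose windows largely coincide, had 8.89 GATA3 regions per 100 kb each, and IFNG had 6.34. The highest BHLHE40 density of the targets was at ZBTB7B, a factor of CD4 T cells, with 6.46 per 100 kb. For GATA3 the medians were 5.29 per 100 kb for the 4 members, 2.80 for the partners and 3.40 for the targets, and for BHLHE40 they were 4.57, 2.40 and 3.79. For H3K27ac the targets were highest, with a median of 11.8, against 10.5 for the members and 8.03 for the partners.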

How the data were processed

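Peaks were called with MACS2 and placed on build hg38, per the submitters' processing notes. The aligner, the filters and the use of inputs are not given in the sources used here. The authors deposited 1 list per group: the factor lists at an irreproducible discovery rate (IDR) of 0.05, the H3K27ac list as pooled. The deposited score of the factor lists was read as −125 × log2(IDR), limited to 1000, as the IDR tool usually writes it. On that reading 830 is an IDR of 0.01, which the lists themselves do not state. The deposited signal value and −log10 q are the authors' values per region, used within 1 list.

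Each line was 1 region. Gene records and start windows came from RefSeq GRCh38.p14, and 3 of the 4 members had start windows. Coordinates are 1-based. A percentile is the share of protein-coding windows with a lower density, ties counted in part. Motifs were searched on both strands of 300 bases. The members, gene lists and settings were chosen with earlier results of these data known. Text names up to 5 regions of highest signal value per gene and list, regions at starts and record ends, and stitched domains. Counting functions were tested on simulated data. Depth per sample is unknown. Scripts ran in Python 3.11.15 with pandas 2.3.3, numpy 2.4.6, matplotlib 3.10.9 and scipy 1.17.1.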

Additional observations from a re-analysis of the deposited data

How the results depend on the processing

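Of 70 alternative settings over 21 results, 55 left the value within 1.5 times or within its interval, and 15 moved it. No test was made, so no call could be lost, but some orders between counts changed. GATA3 against BHLHE40 regions went from 35 against 32 to 22 against 25 in RUNX1 with a score of at least 830, and from 13 against 10 to 6 against 7 in RUNX3 with flanks of 50 kb, where CBFB (4.07 per 100 kb) took the lowest BHLHE40 place from RUNX3 (4.23). A score of at least 830 lowered the GATA3 density of RUNX1 from 7.58 to 4.77 per 100 kb. Requiring −log10 q values of 5 or more lowered the H3K27ac density to 5.63 for RUNX1, 2.84 for RUNX2, 3.01 for RUNX3 and 4.78 for CBFB, and the share of regions with H3K27ac to 40.0% for GATA3 and 50.0% for BHLHE40. Requiring summits within 100 bp lowered the shared part to 46.2% of GATA3 and 50.0% of BHLHE40 regions, and that of the whole lists to 37.5% and 41.5%. Joining H3K27ac regions at most 5000 bp apart lowered the base pairs of the largest domain to 2580 for RUNX1, 1686 for RUNX2, 1264 for RUNX3 and 1786 for CBFB, and using all H3K27ac regions raised them to 18968 for RUNX1 and 4490 for RUNX2. Each of these settings changes the lists or the definition itself. Flanks of 50 kb, overlap with the window and, added after seeing the data, counting regions at most 100 bp apart once moved no density by over 1.5 times. No paired analysis was possible because the lists hold 1 merged value per region and none per sample, and leaving out a replicate was not run for the same reason.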

Other observations

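Some neighbouring lines of the factor lists share a score, in the 4 windows mostly the maximum of 1000. There, 7 pairs of GATA3 lines lay at most 500 bp apart, and 6 of these pairs had the same score. All 6 stood at 1000, the limit of the score, so their equal scores do not show that 2 lines belong together. Of the BHLHE40 pairs there, 2 of 4 had the same score, 1000 at RUNX1 and 649 at RUNX3. In the whole GATA3 list the score was the same in 700 of 1193 such pairs (58.7%), and in the BHLHE40 list in 834 of 1521 (54.8%). How many of these pairs stood at the limit was not counted. The maximum score of 1000 was given to 176 GATA3 lines with a −log10 q under 5, and all 176 had a neighbour within 500 bp. Of these, 4 lay in the windows: 1843 bp upstream of the internal start of RUNX1, 46.1 kb inside the RUNX1 record, 55.2 kb upstream of RUNX2 within SUPT3H, and at MATCAP1 near CBFB. The CBFB case had a signal value of 1.89 (rank 28997 of 29009) and a −log10 q of 1.05, next to a line of the same score with a signal value of 9.93. A high score therefore did not always go with a high signal value of the line that carries it.

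The longest stretch without either factor was measured in each window, with no other genes for comparison. The longest was 63.1 kb for RUNX1 and 63.5 kb for RUNX2, where it was cut off by the edge of the window. Both stretches lay in the flank beyond the downstream end of the record and held no H3K27ac region with a −log10 q of at least 5. In the CBFB window the longest, 78.6 kb upstream of the gene across the carboxylesterase genes, held 4 such H3K27ac regions, the highest with a −log10 q of 6.53.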
